A study of Homo sapiens with 6 samples.

Results

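The unfolded protein response genes of the endoplasmic reticulum (ER) described here are HSPA5, XBP1, HERPUD1, DNAJB9, ERN1, SDF2L1, PDIA4, HSP90B1, CALR and EDEM1. They were chosen by name, as rows of the count tables carrying these symbols. The rule itself used no measured value, but earlier results of these data were known when these genes and the wider lists below were chosen. The genes are 10 of the 19923 protein-coding genes in the tables, each was found in all 6 tables, and all 10 passed the filter on low counts. The cells were of the established neuroblastoma line Kelly, which is MYCN-amplified and wild type in genotype according to the labels. The siControl group (3 libraries) received a control siRNA and the siMETTL3 group (3 libraries) an siRNA against METTL3. Both were transfected by lipofection and collected after 72 hours, and poly(A) RNA was sequenced. METTL3 is the catalytic subunit of the enzyme complex that writes N6-methyladenosine on mRNA, and the comparison asks how the transcriptome of these cells changes when METTL3 is depleted. The knockdown was transient, and the METTL3 counts below, which include introns, fell only in part. The labels do not say whether the replicates were separate cultures. The p-values therefore measure only the spread between these libraries, which may be technical.

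Secreted and membrane proteins fold in the ER with the help of chaperones and of enzymes that form disulfide bonds. When unfolded proteins accumulate, the sensors IRE1 (the product of ERN1), ATF6 and PERK (the product of EIF2AK3) are activated. IRE1 cuts a short intron out of XBP1 mRNA, and the spliced mRNA encodes a transcription factor that, together with cleaved ATF6, raises chaperone and ER-associated degradation genes. PERK slows translation and favours the translation of ATF4, which raises genes of amino acid supply and stress adaptation. HSPA5 and DNAJB9 are among the genes most used as readouts of this response.

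Of the 10 genes, XBP1 and HERPUD1 fell in siMETTL3 cells and none rose. XBP1 stood at 73.6% of its siControl level and HERPUD1 at 83.8%. The chaperones HSPA5, HSP90B1, CALR and PDIA4, the cochaperones SDF2L1 and DNAJB9, the sensor ERN1 and the mannosidase-like EDEM1 did not pass the test, and for 8 of the 10 genes the log2 fold change was smaller than 0.2 in size. The median log2 fold change of the 10 was -0.11. These calls are from edgeR's quasi-likelihood F-test over all 15311 genes that passed the filter, with a false discovery rate (FDR) under 0.05 as the threshold. In the same fit 19.2% of all tested genes were lower and 18.6% were higher, with a median log2 fold change of -0.0021. The 2 of 10 members that were lower are thus close to the share of all genes, and 0 of 10 were higher. At an unadjusted p under 0.05, 5 members were lower and 0 were higher, beside 23.5% and 22.7% of all tested genes. DESeq2 and limma-voom also called 0 members higher, and limma-voom called PDIA4 lower as well. An offset for gene span instead called 2 members higher (CALR and SDF2L1) and 1 lower (XBP1), beside 18.9% and 18% of all genes in that fit.

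METTL3 itself stood at 53.5, 52.8 and 56.2 CPM (counts scaled to library size) in the siControl libraries and at 32.99, 31.8 and 34.3 CPM in the siMETTL3 libraries. The groups did not overlap, and 61.0% of the siControl level remained, a log2 fold change of -0.71 (SE 0.070, edgeR FDR 4.68e-06). A part of the METTL3 span overlaps that of TOX4, so the 2 genes can share reads. The counts also include introns, so the level left in mature METTL3 mRNA or protein was not measured. Library totals were between 15430000 and 21565013 counts. Libraries of the siControl group differed from one another more than those of the siMETTL3 group: a chi-square of the counts, divided by its degrees of freedom, was 5.74 to 16.9 in the former and 3.11 to 3.84 in the latter, where sampling noise alone gives about 1. The siControl replicate 1 held the lowest siControl value for 7 of the 10 members and siControl replicate 3 the highest for 7. All 7 noradrenergic neuroblastoma markers reported, HAND2 and DBH among them, passed the filter, and their summed level was 4783 to 5294 CPM in siControl and 7224 to 7639.6 CPM in siMETTL3. The most abundant of them was MYCN, at 2879.9 to 4743 CPM over the 6 libraries, and without it the sum was 1904 to 2147 CPM in siControl and 2687 to 2913 CPM in siMETTL3. Markers of other cell types were low: 3 of 6 fibroblast markers passed the filter with a sum of 10.8 to 14.6 CPM in siControl and 14.3 to 16.3 CPM in siMETTL3. The 4 leukocyte markers summed to at most 0.603 CPM in any library and none passed, while 2 of 4 epithelial markers (6.41 to 7.14 CPM against 6.09 to 8.36 CPM) and 2 of 3 endothelial markers (4.98 to 5.91 CPM against 6.95 to 9.25 CPM) did. No marker was at 0 in every library. The part of these shifts in the results below was not tested, and in bulk RNA fewer cells expressing a gene and less RNA per cell cannot be told apart.

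The promoters of 6 of these genes hold an element through which the response is known to act, and they are shown because genes with the same element differed in whether they passed the test. The ER stress response element reads CCAAT, then 9 bases of any kind, then CCACG, and is bound by NF-Y at its CCAAT part and by ATF6 at its CCACG part. The second form, ER stress response element II, reads ATTGG, 1 base of any kind, then CCACG. Both were searched on both strands of the RefSeq promoter windows, from 250 bases before to 50 bases after each annotated start (GRCh38.p14). The first was present in 27 of 35116 windows (0.0769%) and the second in 19 (0.0541%). HSPA5, XBP1, HSP90B1 and CALR held the first, HERPUD1 and SDF2L1 the second, and the other 4 members held neither in this window. In the stretches below, written 5′ to 3′ on the strand of the gene, capitals mark the element.
HSPA5, chr9:125241385-125241414, minus strand: cttcaCCAATCGGCGGCCTCCACGacgggg
XBP1, chr22:28800597-28800626, minus strand: gctggCCAATCGCGGAGGGCCACGaccgta
HSP90B1, chr12:103930211-103930240, plus strand: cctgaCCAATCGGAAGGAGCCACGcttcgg
CALR, chr19:12938364-12938423, plus strand: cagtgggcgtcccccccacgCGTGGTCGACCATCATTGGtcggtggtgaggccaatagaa
HERPUD1, chr16:56932001-56932060, plus strand: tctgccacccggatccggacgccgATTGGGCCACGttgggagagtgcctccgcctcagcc
SDF2L1, chr22:21642090-21642149, plus strand: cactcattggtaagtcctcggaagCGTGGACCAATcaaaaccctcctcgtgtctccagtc
Distances are from the RefSeq start, which differs for some genes from the end of the span in the count tables. On that scale the element lay 66 to 48 bases upstream of the HSPA5 start, 52 to 34 bases upstream of the XBP1 start and 117 to 107 bases upstream of the HERPUD1 start. CALR and SDF2L1 carry it in the reverse orientation, 225 to 207 and 188 to 178 bases upstream. HSP90B1 holds 2 copies, the one shown at 194 to 176 bases and a reversed one at 89 to 71 bases. The stretches shown for HSP90B1 and XBP1 overlap exons that GENCODE release 44 annotates, and that of HSP90B1 lies inside the span of the count tables. The UPR element core TGACGTG was present in 1.97% of all windows and in none of the members' windows, whereas CCAAT alone was present in 34.6% of all windows and in a window of all 10 members. A match of letters is a description of the sequence and not evidence of a bound site.

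The transcripts differed widely in abundance. Divided by the length of the canonical transcript, siControl levels ran from 1.71 CPM per kb for ERN1 through 4.38 for DNAJB9, 6.98 for EDEM1, 13.5 for HERPUD1, 35.3 for SDF2L1 and 53.5 for XBP1 to 77.6 for HSPA5, 83.0 for PDIA4, 106 for HSP90B1 and 231 for CALR. The abundant lumenal chaperones thus stood above the sensor and the degradation genes. The counts cover whole gene spans, introns included, so these levels also hold reads of unspliced RNA. Divided by the span, PDIA4 (8.98 CPM per kb) and HSP90B1 (12.6 CPM per kb) fell below SDF2L1 (14.6 CPM per kb) and XBP1 (15.9 CPM per kb), while CALR (74.4 CPM per kb) remained highest and ERN1 (0.147 CPM per kb) lowest.

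**Figure D1:**
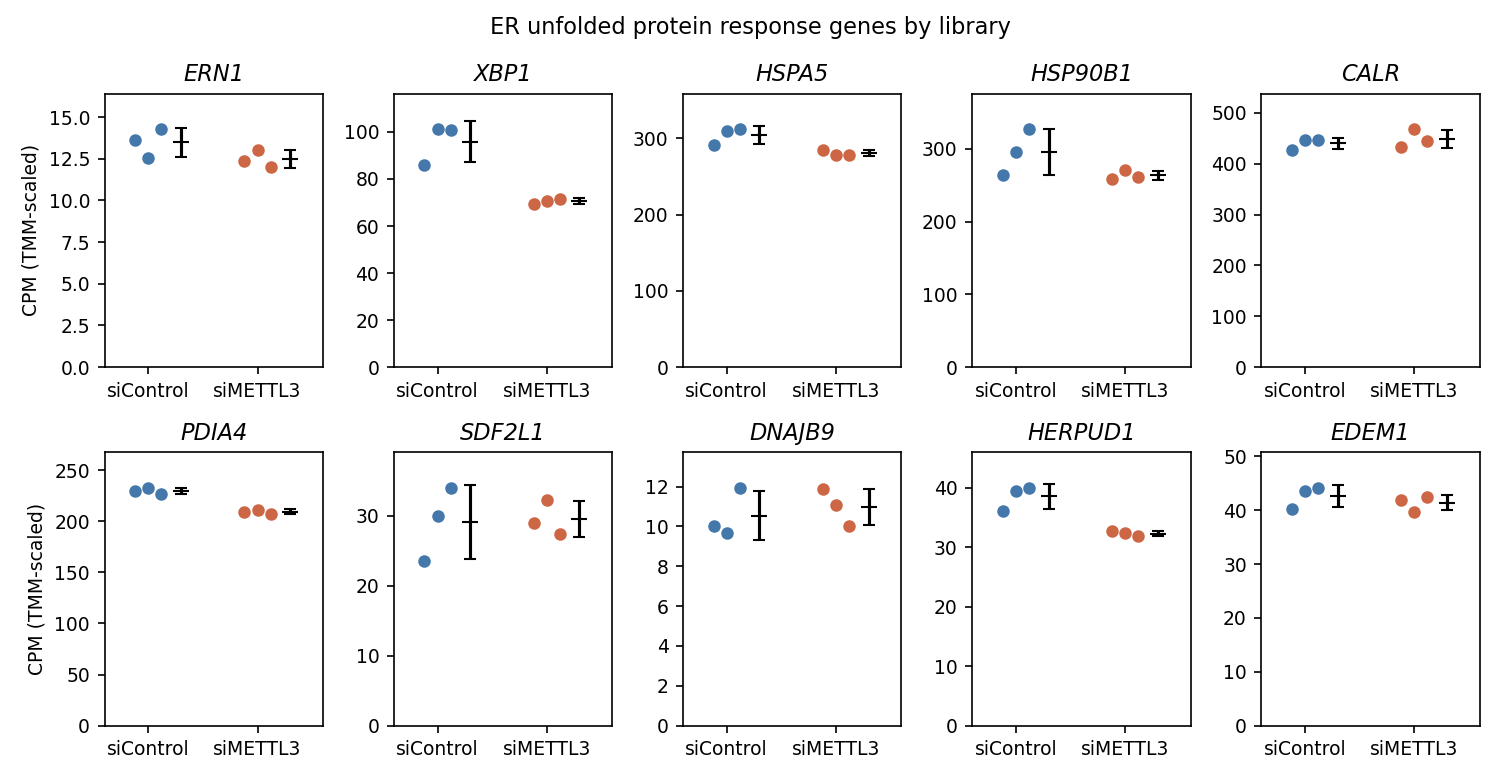
Normalised level (CPM, TMM-scaled, linear axis from 0) of the 10 genes in each library, siControl in blue and siMETTL3 in red, with the mean and SD of 3 libraries in black. XBP1 and HERPUD1 lie lower in every siMETTL3 library, HSPA5 and PDIA4 do so by less than 10%, and the other genes overlap between the groups.

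The signalling end of the pathway was examined first. XBP1 (chr22:28794555-28800597, minus strand) encodes the transcription factor that IRE1 activates by splicing. It stood at 85.8, 101 and 101 CPM in the siControl libraries and at 69.2, 70.6 and 71.6 CPM in the siMETTL3 libraries. Every siMETTL3 library was below every siControl library, and the lowest siControl value was that of replicate 1. The mean was 95.8 ± 8.73 CPM in siControl and 70.5 ± 1.22 CPM in siMETTL3 (SD, n = 3). XBP1 fell by 0.44 on the log2 scale (SE 0.070, 95% interval -0.59 to -0.29, edgeR FDR 0.000269). XBP1 passed the threshold under all 18 alternative settings, with log2 fold changes from -0.52 to -0.30. The authors' counts sum both forms of the mRNA, so the share that had been spliced by IRE1 was not measured. The intron that IRE1 removes is annotated as 26 bases at chr22:28796128-28796153 in 1 of the 6 XBP1 transcripts of GENCODE release 44. A G opens this stretch and another follows it, so a shift by 1 base gives the same spliced sequence. The annotation thus does not fix the exact cut sites. The intron is shown in capitals as annotated, in the 60 bases around it, because reads over it would be needed to tell the forms apart.
XBP1, chr22:28796111-28796170, minus strand: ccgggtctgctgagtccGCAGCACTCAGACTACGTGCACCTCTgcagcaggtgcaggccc
Its length is not a multiple of 3 (remainder 2), so its removal shifts the reading frame.

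ERN1 (chr17:64039142-64130819, minus strand), which encodes IRE1 itself, was at 13.6, 12.6 and 14.3 CPM in siControl and at 12.4, 13.0 and 11.98 CPM in siMETTL3. The groups overlapped, and the log2 fold change of -0.11 had an interval from -0.34 to 0.12 (edgeR FDR 0.456). ERN1 has the longest span of the 10 genes, 91.68 kb, and the lowest level per length, and its raw counts of 215 to 294 limit the precision.

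Among the chaperones, HSPA5 (chr9:125234853-125241343, minus strand) encodes BiP, the lumenal Hsp70 that holds unfolded chains and keeps the sensors inactive. It was at 291, 310 and 312 CPM in siControl and at 285, 278 and 278 CPM in siMETTL3. The groups did not overlap, but they lay close together. The siMETTL3 mean of 280.3 ± 3.73 CPM was 92.2% of the siControl mean of 304 ± 11.4 CPM. The log2 fold change was -0.12 (SE 0.054, 95% interval -0.23 to -0.0015, unadjusted p 0.0475, edgeR FDR 0.104). Without siControl replicate 1 the value was -0.15 and passed the threshold (edgeR FDR 0.0379).

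HSP90B1 (chr12:103930107-103953645, plus strand) encodes GRP94, the ER member of the Hsp90 family. It was at 265, 296 and 327 CPM in siControl and at 259, 271 and 261 CPM in siMETTL3, so siControl replicate 1 fell within the range of the siMETTL3 libraries. The log2 fold change was -0.17 (SE 0.071, 95% interval -0.32 to -0.014, edgeR FDR 0.0799), and without siControl replicate 1 it was -0.24 and passed the threshold (edgeR FDR 0.00296). Of its span, 54.7% is overlapped by C12orf73. That gene went from 182 ± 13.3 to 163 ± 5.16 CPM (-0.16 on the log2 scale, edgeR FDR 0.0669), and the counts of the pair can share reads.

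CALR (chr19:12938578-12944489, plus strand) encodes calreticulin, a calcium-binding lectin that retains immature glycoproteins. It was the most abundant of the 10, at 428, 446 and 446 CPM in siControl and 432, 468 and 444 CPM in siMETTL3. The groups overlapped, with a log2 fold change of 0.027 (SE 0.056, 95% interval -0.093 to 0.15, edgeR FDR 0.748). With counts of 6719 to 10184 per library, the upper end of the interval was 0.15 on the log2 scale, but with an offset for gene span CALR stood at 0.17 and passed the threshold as higher (edgeR FDR 0.0138).

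PDIA4 (chr7:149003062-149028662, minus strand) encodes the disulfide isomerase ERp72. Its 3 siControl values of 230.0, 233 and 226 CPM all lay above its siMETTL3 values of 209, 211 and 207 CPM. The decrease was small and narrow in spread, with means of 229.8 ± 3.26 and 209 ± 2.36 CPM. The log2 fold change was -0.14 (SE 0.052, 95% interval -0.25 to -0.024, edgeR FDR 0.0536). PDIA4 passed the threshold with limma-voom (FDR 0.0464), in edgeR on genes that overlap no other gene (FDR 0.0345) and in edgeR without siControl replicate 3 (FDR 0.0178). PDIA4 itself overlaps no other gene, so its counts were unchanged on genes without overlaps. Its log2 fold change there was -0.15, and that of XBP1 likewise moved, from -0.44 to -0.46.

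The 2 cochaperone genes had the widest spread. SDF2L1 (chr22:21642302-21644299, plus strand) encodes a partner of the BiP and ERdj3 complex. It was at 23.5, 29.9 and 34.0 CPM in siControl and at 28.9, 32.3 and 27.4 CPM in siMETTL3, and the siMETTL3 values lay inside the siControl range (log2 fold change 0.028, SE 0.12, edgeR FDR 0.880). DNAJB9 (chr7:108569867-108574850, plus strand) encodes ERdj4, which recruits BiP to IRE1 and is itself raised by spliced XBP1. It was at 10.01, 9.66 and 11.9 CPM in siControl and at 11.9, 11.07 and 10.03 CPM in siMETTL3. The groups overlapped, and the log2 fold change was 0.067 (SE 0.13, 95% interval -0.20 to 0.34, edgeR FDR 0.716). For both genes a change of 0.2 on the log2 scale in either direction lay within the interval, which for SDF2L1 ran from -0.23 to 0.29.

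In the degradation branch, HERPUD1 (chr16:56932142-56944864, plus strand) encodes Herp, a membrane protein of the complex that moves misfolded proteins out of the ER to the proteasome. It was at 36.2, 39.5 and 40.02 CPM in siControl and at 32.7, 32.3 and 31.8 CPM in siMETTL3. The groups did not overlap, with means of 38.6 ± 2.09 and 32.3 ± 0.407 CPM. HERPUD1 fell by 0.25 on the log2 scale (SE 0.075, 95% interval -0.42 to -0.094, edgeR FDR 0.0155). This call was lost without siControl replicate 2 (-0.24, edgeR FDR 0.0652), without siMETTL3 replicate 3 (-0.25, edgeR FDR 0.0557) and with an offset that removes a trend with gene span, given after the members (-0.17, edgeR FDR 0.0898). EDEM1 (chr3:5187646-5219958, plus strand) encodes a protein that trims or recognises mannose on misfolded glycoproteins. It was at 40.2, 43.5 and 44.2 CPM in siControl and at 41.9, 39.8 and 42.4 CPM in siMETTL3, overlapping throughout (log2 fold change -0.043, SE 0.072, 95% interval -0.20 to 0.11, edgeR FDR 0.679).

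Counting separation alone, 4 of the 10 members (XBP1, HERPUD1, HSPA5 and PDIA4) had every siMETTL3 library below every siControl library and 0 had the reverse. Among all tested genes 49.9% had non-overlapping groups in either direction, so separation of 3 libraries from 3 was common in these data.

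**Figure D2:**
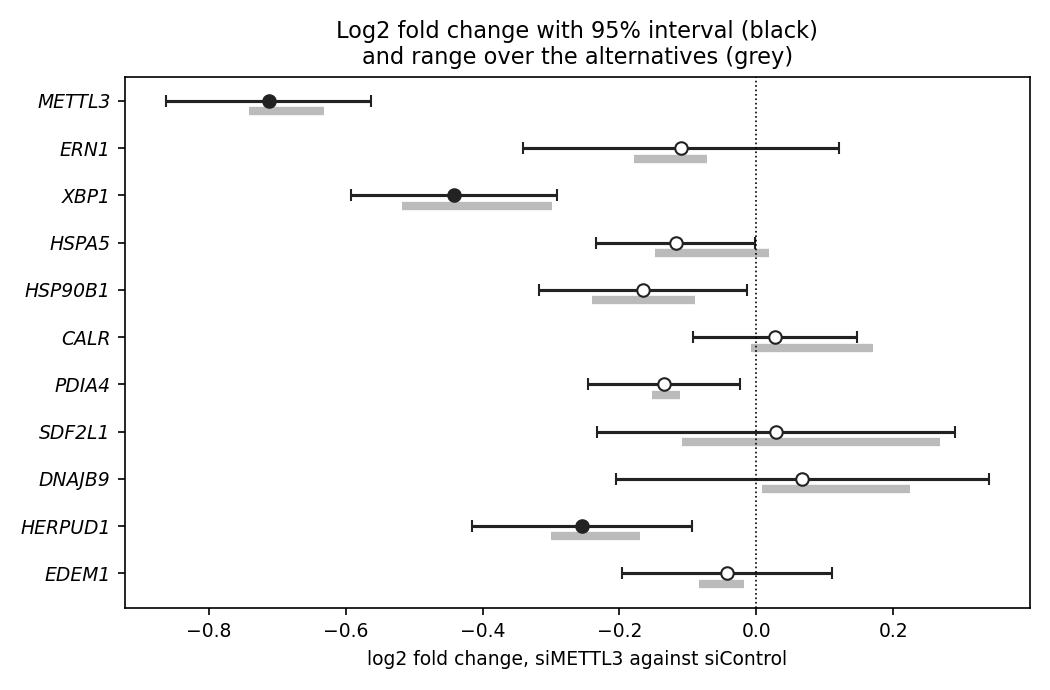
Log2 fold change of METTL3 and the 10 genes, siMETTL3 against siControl, with the 95% interval in black and the range over the alternative settings in grey; filled points have an edgeR FDR under 0.05. METTL3, XBP1 and HERPUD1 are filled, and the intervals of CALR, SDF2L1, DNAJB9, ERN1 and EDEM1 cross 0.

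Gene span moved with the fold change across all genes, and taking this trend out changed 3 calls among the members. The fifth of tested genes with the shortest spans (up to 11.2 kb), which holds XBP1, HSPA5, CALR, SDF2L1 and DNAJB9, had a median log2 fold change of -0.13, with 836 genes lower and 280 higher. The fifth from 50.0 to 110 kb, which holds ERN1, had a median of 0.061, with 425 lower and 768 higher. With the offset for span, CALR (log2 fold change 0.17) and SDF2L1 (0.27, edgeR FDR 0.0398) passed the threshold as higher, HERPUD1 no longer passed, XBP1 remained lower (-0.30) and HSPA5 stood at 0.018. The cause of the trend was not tested.

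The ratio of 2 genes within a library does not depend on library scaling. XBP1 counts per HSPA5 count were 0.295, 0.327 and 0.323 in siControl and 0.243, 0.254 and 0.257 in siMETTL3. HERPUD1 per HSPA5 was 0.124, 0.128 and 0.128 against 0.115, 0.116 and 0.114. ATF4 per HSPA5 showed the widest separation of the 4 ratios computed, at 0.907, 0.876 and 0.862 in siControl and 0.523, 0.524 and 0.560 in siMETTL3. XBP1 per ATF4 went the other way, from 0.325, 0.373 and 0.374 to 0.465, 0.485 and 0.459. Relative to HSPA5, XBP1 was lower by a log2 difference of -0.32, HERPUD1 by -0.14 and ATF4 by -0.72, while XBP1 relative to ATF4 was higher by 0.40. No ratio overlapped between the groups. Each gave a two-sided exact permutation p of 0.1, also after Benjamini-Hochberg adjustment over the 4, which is the smallest that 3 libraries against 3 can give. These 4 ratios were picked with the data in view, and a ratio shows unequal change without saying that either gene stayed constant.

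**Figure D3:**
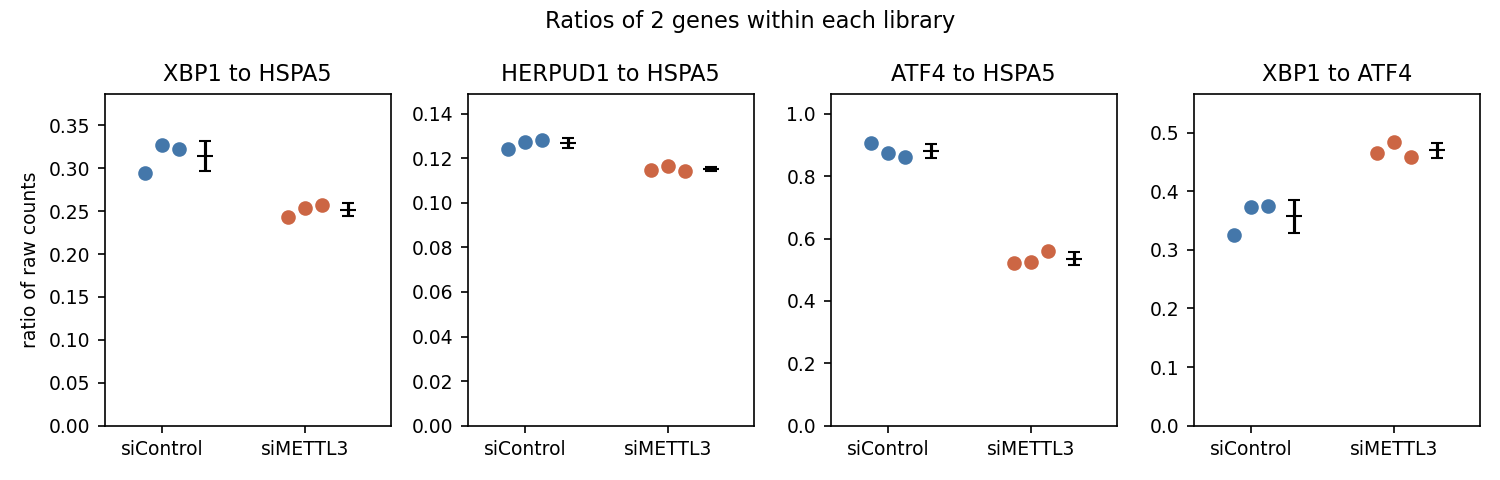
Ratios of raw counts of 2 genes within each library (linear axis from 0), siControl in blue and siMETTL3 in red, with the mean and SD of 3 libraries. XBP1, HERPUD1 and ATF4 per HSPA5 are lower in all siMETTL3 libraries, and XBP1 per ATF4 is higher.

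The rest of the pathway was read from 5 lists with the 10 members left out. Of 16 tested sensors, proteases and transcription factors, 4 rose, 3 fell and 9 did not pass, with a median log2 fold change of -0.014. That is 43.8% called, beside 37.8% of all tested genes. ATF6, the sensor that is cleaved into a transcription factor, rose from 110.3 ± 7.81 to 141 ± 1.32 CPM (0.36 on the log2 scale, edgeR FDR 0.000506). ATF6B of the same list, named with its value known, fell from 45.5 ± 2.24 to 38.5 ± 2.67 CPM (-0.24, edgeR FDR 0.0231). EIF2AK3, which encodes PERK, was at 11.9 ± 1.56 and 11.7 ± 0.869 CPM (-0.018 on the log2 scale, edgeR FDR 0.931). CREB3L1, a membrane-bound factor related to ATF6, rose from a low level of 0.912 to 2.39 CPM (edgeR FDR 0.00211). RTCB, the tRNA ligase that joins the XBP1 exons after IRE1 has cut them, fell from 145 ± 6.31 to 109 ± 3.05 CPM (-0.41 on the log2 scale, edgeR FDR 9.95e-05). BAX fell from 81.4 ± 5.28 to 55.9 ± 0.887 CPM (-0.54 on the log2 scale, edgeR FDR 2.77e-05); it is best known as a pore-forming effector of apoptosis and is not a sensor. Of the IRE1 branch, the sensor gene ERN1 thus did not pass the test, and nor did DNAJB9, which spliced XBP1 raises (0.067). The genes of the IRE1 substrate XBP1 and of the ligase RTCB were lower, and RTCB was named for its small FDR.

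Of 32 other chaperones, cochaperones and folding enzymes, 5 rose, 7 fell and 20 did not pass, with a median of -0.078. SEC63, a translocon-associated J-domain protein that works with BiP, rose from 113 to 157 CPM (0.47 on the log2 scale, edgeR FDR 1.74e-05). PDIA5, a disulfide isomerase linked to ATF6 activation, rose from 108 to 140 CPM (0.37, edgeR FDR 0.000175). The prolyl isomerase PPIB fell from 140 ± 1.76 to 102 ± 2.96 CPM (-0.45, edgeR FDR 3.08e-05), and the thioredoxin-domain protein TXNDC5 fell from 107 to 78.3 CPM (-0.45, edgeR FDR 4.31e-05). The share called, 37.5%, was close to the 37.8% of all tested genes, with calls in both directions.

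Of 27 other genes of ER-associated degradation, 3 rose, 6 fell and 18 did not pass, with a median of 0.058. Here 33.3% were called, beside 37.8% of all tested genes. The ligase SYVN1 (HRD1) fell from 99.8 to 74.4 CPM (-0.42, edgeR FDR 7.90e-05) and UBXN4, which brings the p97 ATPase to the ER membrane, fell from 45.4 to 30.6 CPM (-0.57, edgeR FDR 4.89e-05). SEL1L, the partner of SYVN1, rose from 60.7 to 71.2 CPM (0.23, edgeR FDR 0.0119), and FOXRED2, an ER flavoprotein that works with SEL1L, rose from 93.7 to 110 CPM (0.23, edgeR FDR 0.00633). The 2 core subunits of the HRD1 ligase complex were thus called in opposite directions. The SEL1L call was lost without siControl replicate 2 (edgeR FDR 0.0608), siMETTL3 replicate 1 (edgeR FDR 0.0519) or siMETTL3 replicate 3 (edgeR FDR 0.0600).

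Of 36 genes of translocation, glycosylation and ER-to-Golgi transport, 3 rose, 8 fell and 25 did not pass, with a median of -0.040. In this list 30.6% were called, beside 37.8% of all tested genes. SPCS3, a subunit of the signal peptidase, fell from 140 ± 13.5 to 72.5 ± 2.95 CPM (-0.95 on the log2 scale, edgeR FDR 5.47e-07). SSR3, a subunit of the translocon-associated protein complex, fell from 261 to 172 CPM (-0.60, edgeR FDR 8.64e-06). SEC61B, a subunit of the translocation channel, rose from 12.5 to 17.3 CPM (0.48, edgeR FDR 0.0102), and the coat protein SEC13 rose from 65.7 to 77.4 CPM (0.23, edgeR FDR 0.0133). The SEC61B call was lost without siMETTL3 replicate 2 (edgeR FDR 0.0736) and the SEC13 call without siControl replicate 2 (edgeR FDR 0.0783), siMETTL3 replicate 1 (edgeR FDR 0.0581) or siMETTL3 replicate 2 (edgeR FDR 0.0561).

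In the list of the PERK and ATF4 arm, 13 of 19 tested genes fell, 6 did not pass and 0 rose, with a median log2 fold change of -0.62. The share called was 68.4%, beside 37.8% of all tested genes. ATF4, the transcription factor of this arm, fell from 268 ± 3.66 to 150 ± 5.28 CPM (-0.84 on the log2 scale, edgeR FDR 1.17e-07). ASNS, asparagine synthetase and an ATF4 target, fell from 160 ± 12.3 to 78.03 ± 1.41 CPM (-1.03 on the log2 scale, edgeR FDR 8.56e-08). Of this list, 3 more genes are named with their values known. DDIT3, the pro-apoptotic factor CHOP, fell from 14.7 ± 1.64 to 8.61 ± 1.03 CPM (-0.78, edgeR FDR 0.000406), and CHAC1, a glutathione-degrading enzyme, fell from 16.9 ± 1.32 to 4.85 ± 1.23 CPM (-1.80, edgeR FDR 2.00e-06). BBC3, which encodes the apoptosis inducer PUMA and is also a p53 target, fell from 21.3 ± 1.63 to 9.27 ± 1.23 CPM (-1.20, edgeR FDR 5.19e-06). ATF4 and its targets also answer to amino acid shortage through other kinases, so the list is not particular to the ER. The difference between this list and the 10 members was not tested.

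**Figure D4:**
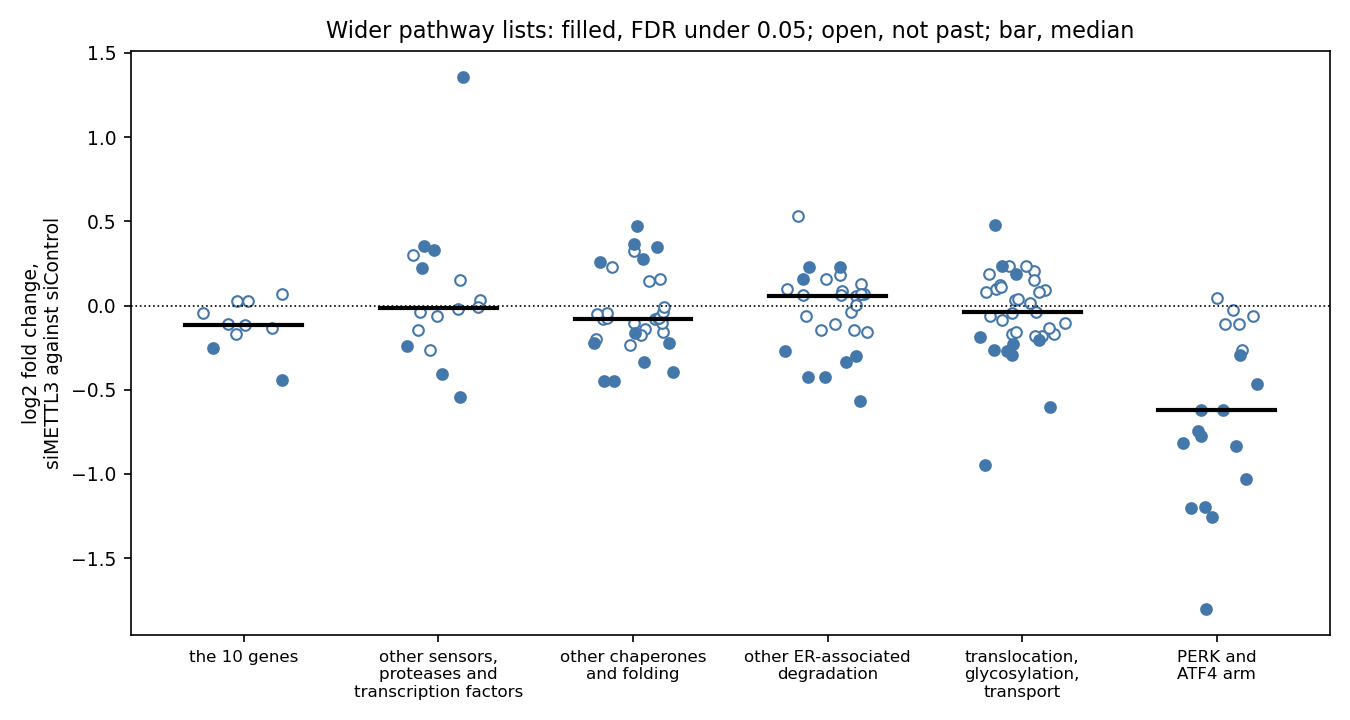
Log2 fold change of each tested gene, siMETTL3 against siControl, for the 10 members and the 5 wider lists without them; filled points have an edgeR FDR under 0.05 and bars are medians. The PERK and ATF4 arm has its median at -0.62, and the other lists have medians between -0.11 and 0.058.

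The promoter element gave a further group that was defined by sequence alone. This group overlaps the list of other chaperones: CANX, HYOU1, PDIA6, CRELD2 and ERO1B are in both, and none of them passed the threshold. Either form of the element was present in 46 windows of 44 genes, 6 of them members. Of the other genes with it, 26 were tested, of which 4 rose, 3 fell and 19 did not pass, with a median log2 fold change of -0.036 and 26.9% called beside 37.8% of all tested genes. The following genes are named with their values known. SERP1, which stabilises membrane proteins under ER stress, fell from 291 ± 10.9 to 226 ± 1.71 CPM (-0.36 on the log2 scale, edgeR FDR 0.000161). The classic ER chaperone genes of the group did not pass: calnexin (CANX) stood at 439 ± 16.8 and 416 ± 2.45 CPM (-0.078, edgeR FDR 0.284), HYOU1, the nucleotide exchange partner of BiP, at 78.04 ± 2.99 and 72.6 ± 3.64 CPM (-0.11, edgeR FDR 0.209), and the isomerase PDIA6 at 331 ± 11.7 and 329 ± 3.96 CPM (-0.0090, edgeR FDR 0.917). SYNPO, an actin-associated protein, rose from 11.6 ± 0.435 to 32.97 ± 0.879 CPM (1.504, edgeR FDR 4.52e-08), so genes sharing these letters in their promoter windows did not share a direction.

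The genes whose pattern over the 6 libraries was most like that of HSPA5 were none of those on the lists above. Likeness was the root mean square difference of centred log2 CPM, taken over 11763 genes whose average log2 CPM was 3 or more. The nearest 5 were LAMC1 (0.0132), GOLIM4 (0.0144), POLR2H (0.0150), SLBP (0.0184) and INTS10 (0.0185). Among the members PDIA4 was nearest, at rank 168 (0.0392), followed by EDEM1 at rank 334 (0.0465). XBP1 was at rank 7416 (0.169), and SDF2L1 at rank 7157 (0.163). Other genes thus lay nearer to HSPA5 in these 6 libraries than any other member did. This was likely in advance, because 11763 genes were compared and few of them are members. The measure places any gene with a similarly small change near HSPA5, so the ranks say nothing about shared regulation.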

How the data were processed

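The deposited values were raw counts per gene, 1 table per library, in 3 siControl and 3 siMETTL3 libraries. Per the file headers, the authors counted reads with featureCounts 1.5.3 over GENCODE release 33 genes from start to end, introns included, letting overlapping genes share reads and setting neither a strand nor a fragment option. The submitters' processing notes name GRCh38, FastQC 0.11.5, Trimmomatic 0.36 and HISAT2 2.1.0. The headers name the alignments of the siMETTL3 libraries siMettl3B and those of both groups "input"; the labels explain neither. Of the gene spans, 33.1% overlap another gene, HSP90B1 alone among the members.

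Groups and replicate numbers came from the sample titles. Genes were filtered with filterByExpr, scaled by TMM and tested with edgeR 4.0.16 (R 4.3.3; robust quasi-likelihood F-test, no covariate, Benjamini-Hochberg over 15311 genes). CPM values use the TMM-scaled library size; SE is the size of the log2 fold change over the root of F. Intervals are 95% intervals of that fit. The fit was tested on simulated data. The alternatives were 3 other scalings, 2 other filters, DESeq2 1.42.0, limma-voom (limma 3.58.1), no robust option, a replicate block, genes without overlaps, a span offset without and with the block, and each library left out. Leaving libraries out of the ratios was added with the data in view. The genes named by rule were METTL3, the members, EIF2AK3, ATF6, ATF4, up to 2 genes per direction and list with the smallest FDR, and the 5 nearest to HSPA5. Further genes of the lists and of the promoter group, named with their values known, were not followed through the alternatives. The members and lists were chosen with earlier results of these data known. ERN2 and NUPR1 did not enter the tests. Promoter sequences are RefSeq's, on GRCh38.p14; the XBP1 intron and transcript lengths are from GENCODE release 44. Another noradrenergic marker is not reported here.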

Additional observations from a re-analysis of the deposited data

How the results depend on the processing

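No call of the genes named by rule changed direction under the 18 alternatives. Values near 0 that were not called did change sign, among them HSPA5 (0.018 with the span offset), SDF2L1 (-0.11 without siControl replicate 1) and CALR (-0.0083 without siMETTL3 replicate 2). On genes without overlaps the medians of the sensors (0.13), of the translocation list (0.0075) and of the other genes with the promoter element (0.14) turned positive, and that of the sensors was 0.0091 with total count scaling. The fit on genes without overlaps left out the overlapping genes of each list. Genes retained in it did not rise: ATF6 went from 0.36 to 0.34 and SEC61B from 0.48 to 0.46. METTL3 (-0.74 to -0.63) and XBP1 (-0.52 to -0.30) passed the threshold under all 18 alternatives, and the calls of DNAJB9, ERN1 and EDEM1 did not change. METTL3 was kept in the fit on genes without overlaps although its span overlaps that of TOX4. That setting therefore does not free METTL3 of shared reads. With a span offset, 2 members were called higher and 1 lower, beside 18.9% and 18% of all genes: HERPUD1 no longer passed (-0.17, edgeR FDR 0.0898), while SDF2L1 (0.27, edgeR FDR 0.0398) and CALR (0.17, edgeR FDR 0.0138) passed. With the span offset and the replicate block the values were -0.17 (edgeR FDR 0.0899), 0.27 (edgeR FDR 0.0227) and 0.17 (edgeR FDR 0.0160), with the same 2 higher and 1 lower. PDIA4 passed with limma-voom (-0.14, FDR 0.0464) and on genes without overlaps (-0.15, edgeR FDR 0.0345), where 9518 genes were tested and 1852 were higher and 1898 lower; the smaller counts follow from the fewer genes. Leaving out 1 library gave 1 to 4 members lower. Without siControl replicate 2 (HERPUD1 lost, edgeR FDR 0.0652) or siMETTL3 replicate 3 (edgeR FDR 0.0557) it was 1. In these fits 28.4% and 29.2% of all genes were called in either direction. Without siControl replicate 1 it was 4 (HSPA5 and HSP90B1 gained), beside 41.3% of all genes called in either direction. Over all fits with 1 library left out, the log2 fold changes ranged from -0.15 to -0.10 for HSPA5 and -0.24 to -0.090 for HSP90B1. They ranged from -0.30 to -0.23 for HERPUD1 and -0.15 to -0.13 for PDIA4. The genes called ranged from 2091 to 3178 higher and 2119 to 3216 lower. Except as stated for overlaps, the cause of these changes was not tested. Same-numbered libraries of the 2 groups had correlations of deviations of 0.0401, 0.0494 and 0.0671. Those of differently numbered libraries ran from -0.0642 to 0.0263, so the same-numbered ones were the highest, though all were near 0. The labels do not say that the numbers pair libraries, and the numbers are not taken as pairs. The fit with the replicate block called 6166 genes, 5733 of them shared, and 2 members lower; HERPUD1 and XBP1 remained and no member's call changed. Depth limits DNAJB9 and ERN1 most, with 180 to 294 counts per library.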
